A study of Homo sapiens with 16 samples.

Results

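The genes described here are 9 of the 57736 genes in the count table: the homeobox factors DLX1, DLX2, DLX5, DLX6, GSX2, NKX2-1 and LHX6, and the GABA-synthesising enzymes GAD1 and GAD2. They were chosen by name, as factors of the ventral forebrain and enzymes of the GABA neurons that arise there. Each was followed through all 16 RNA-seq libraries of H9 human embryonic stem cells taken toward cortical neurons. Cells were differentiated by dual SMAD inhibition, a protocol that directs them to excitatory glutamatergic neurons, and were collected at day 0 (D0), D12, D30 and D70. At each stage 1 arm had received 40 µM Thiamet-G (TMG), an inhibitor of the enzyme OGA that removes O-GlcNAc from proteins, and the other its solvent DMSO (control). Arms follow the sample titles, descriptions and column names. The treatment tag instead calls every replicate 1 library control and every replicate 2 library TMG, against the title in 8 libraries, so if the tag were right the arms below would be mixed. By title, the pluripotency factor gene POU5F1 had 1 and 8 counts in the D30 controls and 94 and 58 in the D30 TMG libraries (edgeR adjusted p = 0.0868), whereas by tag each arm would hold 1 low and 1 high library. Each of the 8 groups held 2 biological replicates of a single cell line, so every mean below rests on n = 2.

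In the embryo, the ventral forebrain (subpallium) makes most GABA neurons of the forebrain, while the dorsal forebrain (pallium) makes glutamatergic ones. GSX2 acts in dividing subpallial progenitors, DLX1 and DLX2 follow as the cells leave division, DLX5 and DLX6 come after them, NKX2-1 marks the most ventral domain and switches on LHX6 in migrating interneurons, and GAD1 and GAD2 make GABA from glutamate. DLX5, DLX6 and other DLX genes also pattern the branchial arches and placodes outside the brain, and NKX2-1 is also a lung and thyroid factor.

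Library totals ran from 10334908 to 19836878 counts, and within a group the replicates differed by 25.6 to 158.8 times the variance that counting alone gives (chi-square per degree of freedom). Some libraries stood apart from their group. The D70 TMG replicate 2 library held 27 counts of the cortical progenitor factor PAX6, against 3881 to 7426 in the other D70 libraries, and 1827 counts of TFAP2A, a neural crest and surface ectoderm factor. Of 9 neural crest, branchial and placode genes, 2 (TFAP2A and TFAP2B) were highest of the stage in that library and 3 (SOX10, MSX1 and MSX2) were lowest. The D70 control replicate 2 library held 543 counts of TFAP2A against 25 in replicate 1. The D30 TMG replicate 2 library held 23049 counts of the opioid peptide precursor PENK against 338 in replicate 1. Within D0, control replicate 2 carried 233 counts of DLX2 against 23 in replicate 1. In bulk RNA, fewer cells of a type and less RNA per cell cannot be told apart.

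The members were scarce transcripts. Only DLX2 and GAD1 exceeded 3 counts in all 16 libraries, and 8 of the 9 passed the filter on low counts; NKX2-1 did not. Per kilobase of annotated exon, the mean level over 16 libraries was highest for DLX2 at 1.10 CPM per kb (CPM, counts scaled to a common library size), followed by GAD1 at 0.920, DLX5 at 0.823, GSX2 at 0.222, DLX1 at 0.205, DLX6 at 0.110, LHX6 at 0.109, GAD2 at 0.0605 and NKX2-1 at 0.0177. Neighbours in this order had overlapping ranges over the libraries, and single libraries carried part of it. Without its own highest library the mean was 0.804 CPM per kb for DLX2, 0.800 for GAD1, 0.467 for DLX5 and 0.0744 for GSX2, which then stood below DLX1 (0.161) and LHX6 (0.0963). Exon lengths count all annotated transcripts together, which lowers the value of genes with many isoforms such as GAD1 (8242 bp). A library at 0 still allows up to 0.147 to 0.291 CPM, the level of 3 counts at the deepest and shallowest library.

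**Figure D1:**
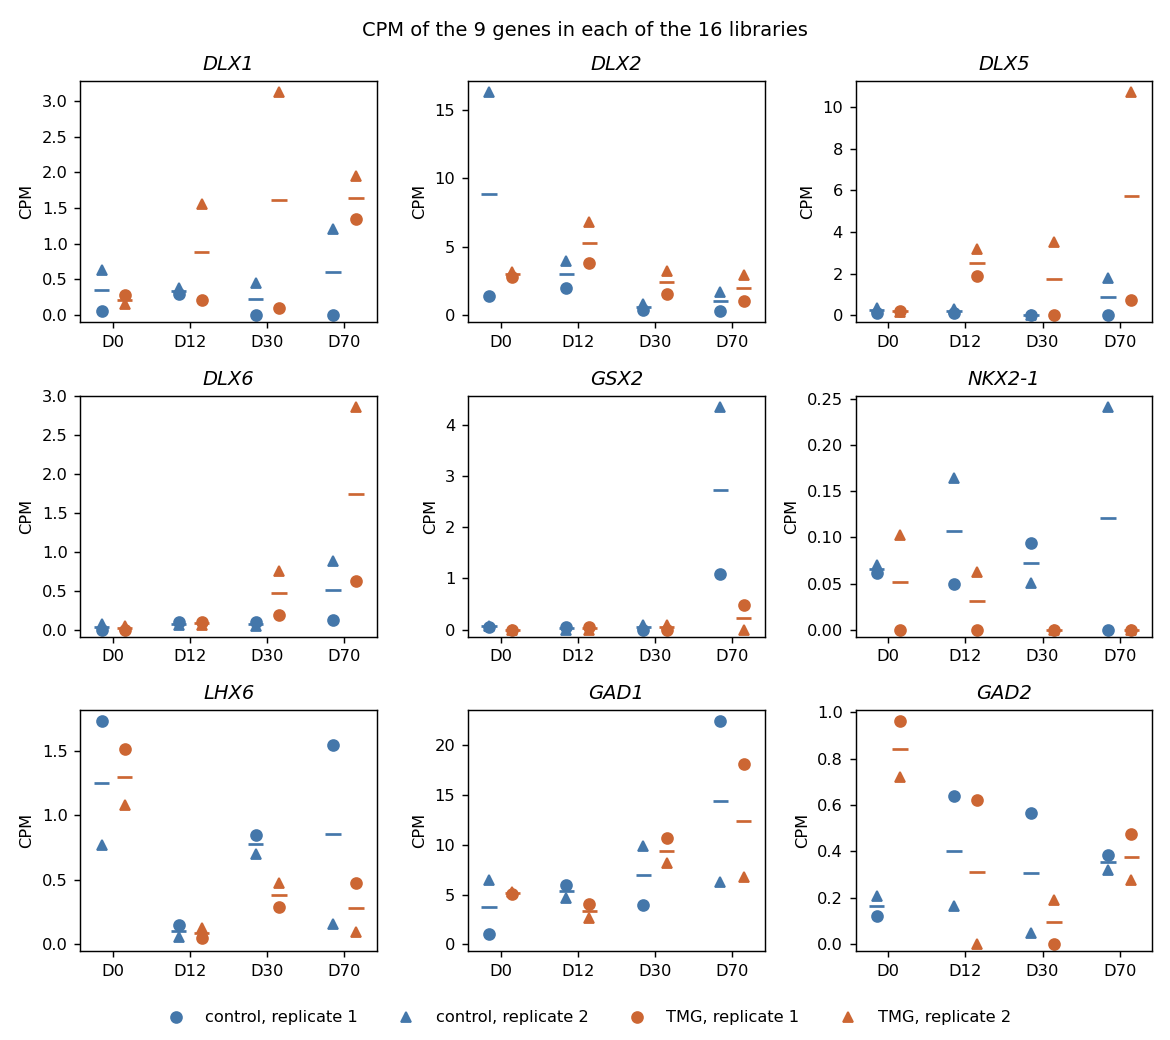
Level of each gene (y axis, CPM, separate scale for each panel) by stage (x axis, days of differentiation), with control in blue, TMG in orange, circles for replicate 1, triangles for replicate 2 and a bar at the mean. The highest DLX1, DLX2, DLX5, DLX6 and GSX2 points each belong to a replicate 2 library, whereas the highest GAD1 point, at 22.4 CPM, belongs to D70 control replicate 1.

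The DLX genes sit in pairs. On GRCh37 (GENCODE release 44 lifted over), DLX1 occupies chr2:172949468-172954405 on the plus strand beside DLX2 at chr2:172964166-172967628 on the minus strand, and DLX6 occupies chr7:96634865-96640352 on the plus strand beside DLX5 at chr7:96649708-96654262 on the minus strand. DLX6 lies wholly inside the antisense gene DLX6-AS1. The counting is not stated to use strand, so reads from any exon stretch shared with the antisense partner could not be told apart from those of DLX6. Overlaps here and below are of whole genes, introns included, and shared exons were not tested.

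To set sequences side by side for genes that did and did not move together, the 250 bases before the RefSeq start site of DLX1, DLX2, DLX6, GSX2 and GAD1 are shown, read 5′ to 3′ on the strand of the gene (GRCh38.p14; DLX1 chr2:172085257-172085506, DLX2 chr2:172102901-172103150, DLX6 chr7:97005303-97005552, GSX2 chr4:54099913-54100162, GAD1 chr2:170816637-170816886). Across the 16 libraries r was 0.66 for DLX1 and DLX6, 0.48 for DLX1 and DLX2 and -0.04 for DLX2 and DLX6, and r of GSX2 and GAD1 with DLX1 or DLX6 was at most 0.38. RefSeq windows were found for 8 of the 9 genes, all but DLX5. Capitals mark every match, on either strand, to CCAAT (the CCAAT box), TATAAA (the TATA box), GGGCGG (a GC box) or TAATTA (a core that homeodomain proteins bind).
DLX1: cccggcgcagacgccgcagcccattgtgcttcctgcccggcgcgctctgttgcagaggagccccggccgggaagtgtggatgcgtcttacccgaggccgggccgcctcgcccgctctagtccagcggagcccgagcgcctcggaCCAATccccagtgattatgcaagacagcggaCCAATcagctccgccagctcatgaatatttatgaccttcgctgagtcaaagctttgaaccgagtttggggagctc
DLX2: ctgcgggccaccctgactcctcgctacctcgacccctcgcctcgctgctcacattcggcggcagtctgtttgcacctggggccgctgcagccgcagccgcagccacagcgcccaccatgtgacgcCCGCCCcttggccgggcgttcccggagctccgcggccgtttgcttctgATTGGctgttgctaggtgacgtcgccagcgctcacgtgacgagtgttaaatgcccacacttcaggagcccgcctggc
DLX6: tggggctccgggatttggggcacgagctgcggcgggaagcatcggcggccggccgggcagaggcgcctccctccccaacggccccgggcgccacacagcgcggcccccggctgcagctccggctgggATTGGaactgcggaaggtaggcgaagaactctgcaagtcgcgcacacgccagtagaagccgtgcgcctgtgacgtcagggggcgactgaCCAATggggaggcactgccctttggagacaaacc
GSX2: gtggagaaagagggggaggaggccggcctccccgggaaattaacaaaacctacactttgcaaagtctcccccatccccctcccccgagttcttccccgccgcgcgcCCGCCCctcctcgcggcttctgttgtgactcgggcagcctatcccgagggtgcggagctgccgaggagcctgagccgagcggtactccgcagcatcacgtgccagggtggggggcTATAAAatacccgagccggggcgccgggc
GAD1: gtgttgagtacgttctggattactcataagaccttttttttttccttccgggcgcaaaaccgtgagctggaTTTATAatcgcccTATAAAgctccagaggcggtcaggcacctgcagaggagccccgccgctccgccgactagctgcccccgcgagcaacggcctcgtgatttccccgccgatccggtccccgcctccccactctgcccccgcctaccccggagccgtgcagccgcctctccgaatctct

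CCAAT occurred in the DLX1, DLX2 and DLX6 windows and not in those of GSX2 or GAD1. It lay 106 and 75 bases before the DLX1 start, 77 bases before DLX2 (as its complement) and 123 (complement) and 34 bases before DLX6. It also occurred before 1 of 3 annotated starts of LHX6 and 1 of 2 of GAD2, and before neither of the 2 of NKX2-1. The same letters occur in 32% of all 35116 windows of this length. TATAAA lay 29 bases before the GSX2 start and 166 bases before GAD1, where its complement also lay 179 bases before the start, against 10.7% of all windows. GGGCGG, held by 42.6% of windows, matched as its complement in DLX2 and GSX2. Before the starts of the genes not shown, TATAAA matched at 1 of 3 for LHX6, and GGGCGG at 1 of 2 for NKX2-1, 1 of 3 for LHX6 and 2 of 2 for GAD2. TAATTA, held by 4.35% of windows, matched at 1 of 2 starts of NKX2-1 and in none of the 5 windows shown, which says only that these letters are not in these stretches. Windows were 61.6% to 70% G and C, against a median of 58%. These matches describe the sequence and were not linked to binding.

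DLX5, which acts late in the subpallial series and also in branchial arches, ran from 0 to 116 counts over the libraries. At D12 it had 2 and 5 counts in the control libraries and 36 and 51 in the TMG libraries. Both TMG libraries were above both controls, at 2.52 ± 0.918 against 0.186 ± 0.124 CPM (SD, n = 2). The log2 fold change was 3.72 (SE 1.91), with an edgeR adjusted p of 1.0, and it stayed between 3.16 and 4.57 when any one D12 library was left out. DESeq2 fitted to the 4 D12 libraries alone called it (adjusted p = 0.0110) among 0.555% of the genes to which that fit gave an adjusted value, whereas DESeq2 on all 16 libraries gave an adjusted p of 1.0.

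At D30, DLX5 was at 0 in both controls and in TMG replicate 1, and all 37 counts of the TMG group came from replicate 2, the library with 23049 counts of PENK. With the control group set at a floor of 3 counts the ratio of pooled counts was 18.1. The 95% interval of the ratio began at 13.98 (counting error only), and the edgeR adjusted p was 0.383. Without that library no DLX5 read remained at D30. At D70 the controls had 0 and 22 counts and the TMG libraries 9 and 116. The groups overlapped, the log2 fold change was 2.72 (SE 1.72, adjusted p = 0.938), and its sign turned to -0.26 without TMG replicate 2, the library with 27 counts of PAX6.

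DLX6, the neighbour of DLX5, gave 0 to 2 counts in each D0 and D12 library. At D30 it had 1 and 1 counts in control and 2 and 8 in TMG, a ratio of pooled counts of 7.33 (95% interval 1.56 to 68.8, counting error only; edgeR adjusted p = 0.458). Both TMG libraries lay above both controls, by few reads. At D70 it had 2 and 11 counts in control and 8 and 31 in TMG, so the groups overlapped, with a log2 fold change of 1.80 (SE 0.99, adjusted p = 0.909) that fell to 0.36 without TMG replicate 2.

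DLX6 rose from D0 to D70 in the TMG arm, from 1 pooled count to 39, a ratio of 56.5 (95% interval 9.56 to 2287, counting error only; edgeR adjusted p = 0.0118, DESeq2 0.00819). The call was lost without D70 TMG replicate 2 and without either D0 TMG library. In the control arm the pooled counts were 1 and 13, a ratio of 14.2 (2.13 to 601.8), with an adjusted p of 0.0828. Whether the rise differed between arms was not tested. The antisense gene DLX6-AS1 had 2 and 27 counts in the D70 controls and 79 and 83 in the D70 TMG libraries, a log2 fold change of 2.62 (SE 1.05, edgeR adjusted p = 0.894). From 1 and 0 counts in the D0 controls, it rose to D70 in the control arm by 4.8 on the log2 scale (SE 1.57, edgeR adjusted p = 0.044).

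DLX1, which acts with DLX2 as progenitors become neurons, had 1 and 9 counts in D0 controls and 4 and 3 in D0 TMG. At D12 the control libraries had 6 and 7 counts and the TMG libraries 4 and 25. At D30 they were 0 and 9 against 1 and 33, and at D70 0 and 15 against 17 and 21. Only at D70 were both TMG libraries above both controls. The log2 fold changes were 1.34 (SE 1.61) at D12, 2.58 (SE 1.69) at D30 and 1.48 (SE 1.58) at D70, with edgeR adjusted p of 1.0, 0.588 and 0.947. Leaving out TMG replicate 2 turned the sign at D12 (-0.69) and at D30 (-1.36), and left 1.21 at D70.

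DLX2 was detected everywhere, with 4 to 233 counts. At D0 the controls had 23 and 233 counts and the TMG libraries 41 and 61, so that the TMG values lay inside the control range. The log2 fold change of -1.57 (SE 1.00, adjusted p = 1.0) became 1.07 without control replicate 2. At D12 DLX2 had 41 and 72 counts in control and 73 and 109 in TMG. In CPM the groups overlapped, with a log2 fold change of 0.83 (SE 0.99, adjusted p = 1.0).

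At D30, DLX2 had 4 and 16 counts in control and 16 and 34 in TMG, or 0.376 and 0.803 against 1.55 and 3.22 CPM. These groups did not overlap. The log2 fold change was 1.95 (SE 1.10), with an adjusted p of 0.516, and it ranged from 1.33 to 2.64 when single D30 libraries were left out. At D70 the counts were 5 and 21 against 13 and 32, with a log2 fold change of 1.00 (SE 1.07, adjusted p = 0.947) that shrank to 0.07 without TMG replicate 2.

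Over the stages, DLX2 fell from D0 to D30 in the control arm, by 3.84 on the log2 scale (SE 1.13, edgeR adjusted p = 0.0265, DESeq2 0.00166). The edgeR call was lost without the filter on low counts. The fall was 1.21 and not called without D0 control replicate 2, the library with 233 counts, and the call was also lost without either D30 control. From D0 to D70 in the control arm the log2 change was -3.15 (SE 1.09), with an edgeR adjusted p of 0.0501 and a DESeq2 adjusted p of 0.0108. This change was -0.52 without the same D0 library. A fit with a replicate block called it, as given in the last section.

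The 4 DLX genes had the same sign of difference at each later stage. At D0, 0 of 4 had a positive TMG estimate, and at D12, D30 and D70 4 of 4 did, although DLX6 at D12 rested on 3 pooled counts in each arm, at the floor. The median log2 fold change of the 4 was 1.08 at D12, 2.64 at D30 and 1.64 at D70, where the median over all 24249 tested genes was 0.003, 0.011 and -0.01. The signs at D12, D30 and D70 were the same with RLE scaling, without the filter, with DESeq2 and with a replicate block. The D30 median is the same with DLX5 set at its ratio against the floor. None of the 4 passed edgeR's test at any stage, and as given above the signs of DLX1 at D12 and D30 and of DLX5 at D70 turned without the replicate 2 TMG library. The 4 genes were read in the same libraries, and DLX1, DLX5 and DLX6 tracked each other (r = 0.66 to 0.82), so their signs are not independent. In the D30 TMG group, 33 of 34 counts of DLX1 and all 37 of DLX5 came from replicate 2.

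The DLX genes also differed by replicate number. Their summed level was higher in replicate 2 than in replicate 1 in 8 of 8 groups, from 17.4 against 1.6 CPM in D0 control to 18.5 against 3.7 CPM in D70 TMG, with the smallest gap in D0 TMG (3.5 against 3.3). DLX2 was higher in replicate 2 in 8 of 8 groups, DLX1 in 7, DLX5 in 6 and DLX6 in 5. LHX6, GAD1 and GAD2 were higher in replicate 2 in 2, 3 and 2 groups. The summed neural crest, branchial and placode genes described below were higher there in 7 of 8. The pan-neuronal list and the list of the midbrain, hindbrain and spinal GABA lineage were higher there in 6 each, and the remaining lists in 2 to 5. Set against the control of the same number, both TMG libraries were higher in CPM for 0 of the 4 DLX genes at D0 (all genes 25.9%), 3 at D12 (29.9%), 3 at D30 (32.5%) and 4 at D70 (24.7%). DLX6 at D12 counts among these only through library scaling, with 2 and 1 counts in both arms. Since the treatment tag follows the replicate number, the tag and the replicate cannot be told apart.

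**Figure D2:**
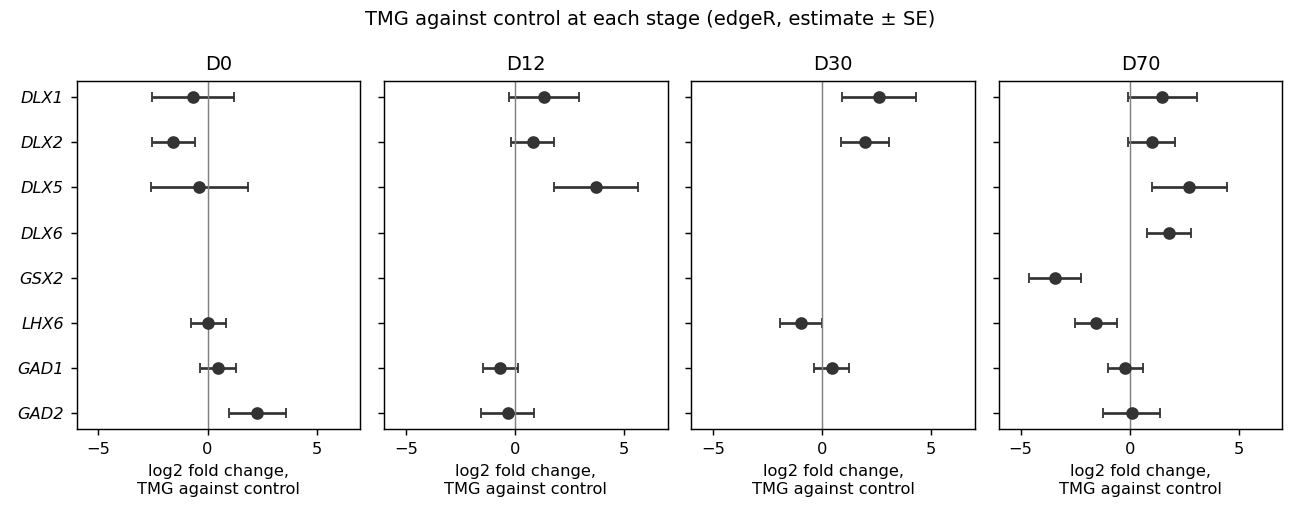
Log2 fold change of TMG against control (x axis, edgeR estimate with a bar of 1 SE to each side) for the 8 tested genes (y axis) at D0, D12, D30 and D70. The 23 of 32 estimates shown are those with more than 3 pooled counts in both groups; the 4 DLX genes lie right of 0 wherever shown after D0, and GSX2 at D70 lies at -3.41.

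GSX2, a factor of dividing subpallial progenitors (chr4:54965690-54968665, plus strand), was near 0 until D70. It lies within the protein-coding gene ENSG00000282278 on the same strand (2976 bp shared), for which no count was matched, so any reads shared by the pair could not be told apart. Its 12 libraries of D0, D12 and D30 held 0 to 2 counts each. At D70 it had 17 and 54 counts in the control libraries and 6 and 0 in the TMG libraries, so both controls were above both TMG libraries. The TMG log2 fold change was -3.41 (SE 1.19), with an edgeR adjusted p of 0.884. The estimate ran from -8.36 to -2.11 when single D70 libraries were left out. The -8.36 end leaves only TMG replicate 2, at 0 counts, so it is a fitted value and no measured fold.

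In the control arm GSX2 rose from D0 to D70, from 2 pooled counts to 71, a ratio of 38.7 (95% interval 10.3 to 325.5, counting error only; adjusted p = 0.0185, DESeq2 0.0310). Against D12, with 1 pooled count, the ratio was 98.0 (17.0 to 3924) with an adjusted p of 0.0258, for which DESeq2 gave no adjusted value. The rise from D0 was not called without D70 control replicate 2 or without either D0 control. The rise from D12 was not called without D70 control replicate 2 or without either D12 control. That D70 library also held 1191 counts of RAX, a factor of the eye field and hypothalamus, and the hypothalamus list of 10 genes summed to 107 CPM in it, against 55.0 in control replicate 1 and 20.3 and 8.0 in the TMG libraries. RAX made up 95.8 CPM of that 107. In the D30 controls, where GSX2 had 0 and 2 counts, the list summed to 123.9 and 135.6 CPM, but there FEZF1, a forebrain factor, made up 121.5 and 133.5 CPM and RAX 1.13 and 1.10. The part of such cells in the GSX2 counts was not tested.

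NKX2-1, the factor of the most ventral forebrain (chr14:36985597-36990354, minus strand), was at or under 3 counts in all 16 libraries. It had 14 counts in all, was at 0 in 7 libraries and was not tested. On the same strand it is overlapped over its 4758 bp by ENSG00000257520, an identifier with the symbol SFTA3 that had 0 counts in all. A separate identifier of that symbol, ENSG00000229415, has its own counts and lies outside NKX2-1. On the other strand lie ENSG00000283098, over the same 4758 bp, and NKX2-1-AS1, over 1872 bp with 1 count in all. At D70 it had 0 and 3 counts in control and 0 and 0 in TMG. At this depth no difference could be detected. The 10 genes of a lung and thyroid list, the other tissues of NKX2-1, summed to 7.1 to 19.8 CPM per library, and SFTPC, a surfactant gene of lung, had 0 to 9 counts.

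LHX6, which NKX2-1 switches on in interneurons (chr9:124964856-124991905, minus strand), had its highest group means in undifferentiated cells. It had 28 and 11 counts in D0 controls and 22 and 21 in D0 TMG libraries, then 3 and 1 in D12 controls and 1 and 2 in D12 TMG libraries. LHX6 fell from D0 to D12 in both arms. In control the log2 change was -3.51 (SE 1.01, adjusted p = 0.0379, DESeq2 0.0224). In TMG the pooled counts went from 43 to 3, a ratio of 14.9 (95% interval 4.77 to 75.1, counting error only; adjusted p = 0.0327, DESeq2 0.0171). Neither call held when any one of its own 4 libraries was left out, with control estimates then between -4.30 and -2.78.

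At D30 LHX6 had 9 and 14 counts in control and 3 and 5 in TMG. The groups did not overlap, and the log2 fold change was -0.99 (SE 0.95, adjusted p = 0.741). At D70 it had 24 and 2 counts in control and 6 and 1 in TMG. These groups overlapped, and the log2 fold change of -1.55 (SE 0.96, adjusted p = 0.926) turned to 0.83 without control replicate 1, which holds 24 of the 26 control counts.

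GAD1, which encodes the enzyme GAD67 and supplies most basal GABA (chr2:171669723-171717661, plus strand), was the best measured of the 9 with 17 to 349 counts. Its D0 libraries had 17 and 92 counts in control and 74 and 102 in TMG, and its D12 libraries 122 and 85 in control and 77 and 43 in TMG. At D30 it had 42 and 197 counts in control and 110 and 86 in TMG. At D70 the levels split by replicate and not by arm, at 22.4 and 6.28 CPM in control and 18.1 and 6.75 in TMG.

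TMG log2 fold changes of GAD1 were 0.47 (SE 0.82) at D0, -0.67 (SE 0.82) at D12, 0.43 (SE 0.81) at D30 and -0.21 (SE 0.80) at D70, with edgeR adjusted p from 0.890 to 1.0. At D12 both TMG libraries lay below both controls. The sign turned without control replicate 1 at D0 (-0.29), D30 (-0.076) and D70 (0.99), and without TMG replicate 2 at D70 (0.33). From D0 to D70 in control GAD1 averaged 3.74 ± 3.81 and then 14.4 ± 11.4 CPM (SD, n = 2). The log2 change was 1.95 (SE 0.83), with an adjusted p of 0.101 by edgeR and 0.0498 by DESeq2, and it ran from 0.75 to 3.77 when single libraries of the pair were left out. On the other strand GAD1 shares 3352 bp with ENSG00000235934, which had 61 counts in all, 1230 bp with ENSG00000286611, for which no count was matched, and 458 bp with ERICH2-DT, which had 128 counts, so part of its reads may not be its own.

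GAD2, which encodes the synaptic enzyme GAD65 (chr10:26505594-26593487, plus strand), had 0 to 14 counts. Its highest values were at D0 under TMG, with 14 and 14 counts against 2 and 3 in control. These groups did not overlap, and the log2 fold change was 2.29 (SE 1.31, adjusted p = 1.0), between 1.98 and 2.69 without single D0 libraries. After D0 it had 13, 3, 12 and 0 counts at D12, 6, 1, 0 and 2 at D30 and 6, 4, 6 and 3 at D70 (control replicates 1 and 2, then TMG), and the groups overlapped at each stage.

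Counted over the members, 0 of 8 tested genes were called between TMG and control at D0, D12, D30 or D70 by edgeR at a false discovery rate of 5%, as were 0 of 24249 genes in all (0%), and DESeq2 on 16 libraries also called 0 members at each stage. DESeq2 gave an adjusted value to 9 members at D0, 5 at D12, 3 at D30 and 8 at D70, so the others could not be called by it, and it called 0.0116%, 0.0514%, 3% and 0.218% of all genes with such a value. At an unadjusted p under 0.05 the members numbered 0 at D0 (all genes 1.26%), 0 at D12 (2.48%), 1 at D30 (DLX5; 12%) and 1 at D70 (GSX2; 5.49%). Groups that did not overlap were found for 2 of 8 members at D0 (GAD2 higher and GSX2 lower in TMG, the latter at 1, 1, 0 and 0 counts) against 36.6% of all genes. They were found for 2 at D12 (34.3%), 3 at D30 (44.1%) and 2 at D70 (22.1%). The change of the TMG difference from D12 to D30 was called for 0 members and 0% of genes, with 0 members and 3.41% of genes at an unadjusted p under 0.05. From D30 to D70 the corresponding values were 0 and 0%, then 0 and 4.03%. DESeq2 called 0 of the 4 and 5 members to which it gave an adjusted value, and 0.0778% and 0.112% of all genes.

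Between stages the members were called in 6 of 12 comparisons, 1 gene in each. In control these were LHX6 for D12 against D0 (all genes 16.7%), DLX2 for D30 against D0 (30.6%), and GSX2 for D70 against D0 (29.8%) and against D12 (11.1%). No member was called for D30 against D12 (3.6%) or D70 against D30 (0.384%). In TMG they were LHX6 for D12 against D0 (16.4%) and DLX6 for D70 against D0 (29%). No member was called for D30 against D0 (27.7%), D30 against D12 (0.511%), D70 against D12 (5.15%) or D70 against D30 (0.00825%). With 1 of 8 members called, each share lay below the background for comparisons with D0. A fit with a replicate block also called DLX6 in TMG for D30 against D0 and for D70 against D12. In control it also called DLX2 for D70 against D0, with the shares of all genes in the last section. DESeq2 on 16 libraries called 3 of 8 members with an adjusted value for D70 against D0 in control (31.7% of all genes), 2 of 8 for the same stages in TMG (31.9%) and 0 of 5 for D70 against D12 in control (19.7%), where GSX2 had no adjusted value.

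Across the 16 libraries some members tracked each other. The Pearson r of log2 CPM was 0.82 for DLX1 and DLX5, 0.69 for DLX5 and DLX6, 0.66 for DLX1 and DLX6 and 0.48 for DLX1 and DLX2, whereas DLX2 and DLX6 gave -0.04. GAD1 gave between -0.34 and 0.41 with the other 7. It was closer to SLC32A1, the transporter that fills vesicles with GABA (0.65, chosen after its values were seen), and to DCX, a protein of young neurons (0.69). The libraries share stage, line and scaling, and these correlations are descriptions.

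**Figure D3:**
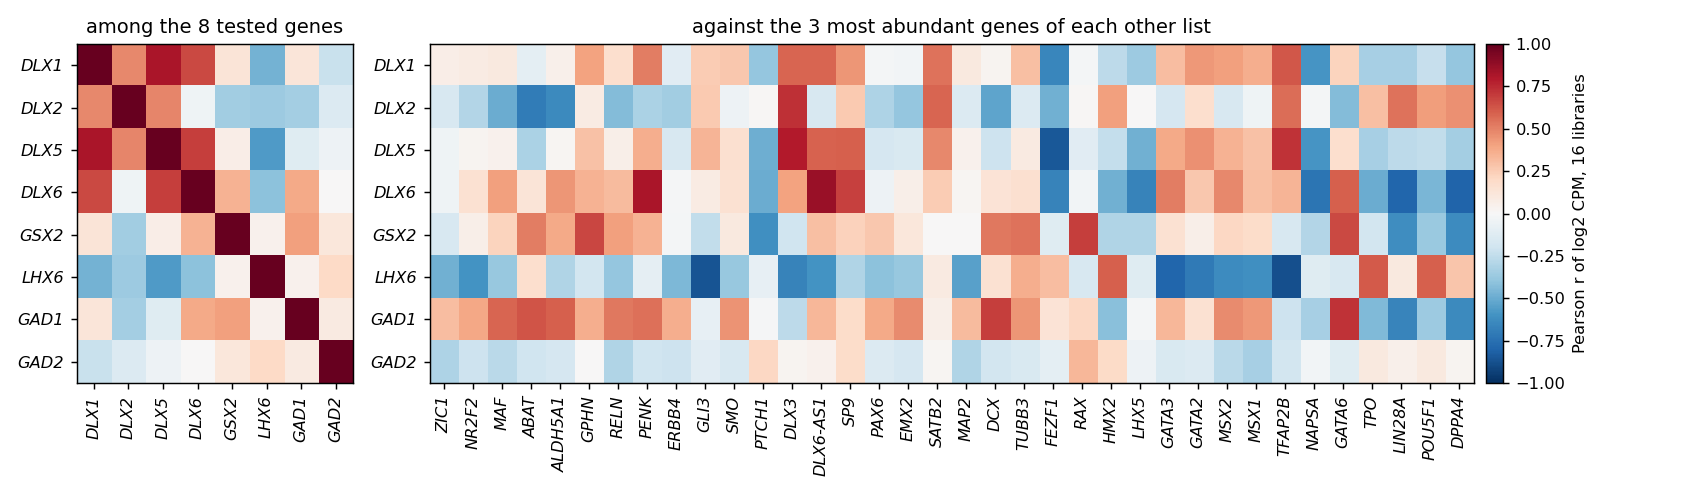
Pearson r of log2 CPM over 16 libraries (colour, -1 in blue to 1 in red) among the 8 tested genes (left) and of these 8 (rows) with 36 genes, the 3 most abundant of each of 12 other lists (columns, right). DLX1, DLX5 and DLX6 form a red block with each other, and LHX6 is blue with GLI3 (-0.86) and TFAP2B (-0.88).

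The genes whose pattern came nearest to the mean of the DLX genes over 16 libraries were IRX5 (r = 0.93) and IRX3 (r = 0.93), homeobox factors of the Iroquois family, followed by ISY1, SMTN and LINC02202 (0.88 to 0.89). IRX3 also came first for DLX5 (0.92). It had 335 counts in D30 TMG replicate 2 against 9 in replicate 1, and 36 and 258 counts in the D70 controls. The nearest to DLX6 was KCNMA1 (0.94), to GSX2 ENSG00000272268 (0.95), to LHX6 PTGES3 (0.91), to GAD1 ODAD2 (0.86) and to GAD2 CYP2F1 (0.74). Next to GSX2 came MAB21L1, a gene of eye development, and CRYGC, a lens crystallin gene (0.945 for both). In the D70 libraries CRYGC had 13 and 233 counts in control and 19 and 0 in TMG, and MAB21L1 had 448 and 1660 in control and 368 and 105 in TMG, so both peaked in control replicate 2, as GSX2 did.

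DLX factors are shared with the neural crest, branchial arches and placodes, so the summed level of DLX1, DLX2, DLX5 and DLX6 was set beside that of a list of 9 genes of those tissues (TFAP2A, TFAP2B, SOX10, FOXD3, HAND2, MSX1, MSX2, EYA2 and BARX1). The list summed to 32.9 to 78.9 CPM at D0, 174.3 to 680.8 at D12, 44.1 to 411.2 at D30 and 91.3 to 307.1 at D70. Within each later stage the library with the highest list sum was TMG replicate 2, which also had the highest DLX sum, at 11.6 CPM at D12, 10.6 at D30 and 18.5 at D70. That library was the highest of its stage for 6 of the 9 list genes at D12, 8 at D30 and 2 at D70. BARX1 at D30 counts among these only through library scaling, with 6 counts in that library and 6 in each control. The D70 sum was carried by TFAP2A (169.0 CPM) and TFAP2B (79.6 CPM), while SOX10, MSX1 and MSX2 were at their lowest of that stage there and FOXD3 was at 0. Over the 12 libraries after D0, r of the log2 sums was 0.88 (Spearman's rho 0.91) and 0.85 without the 2 libraries farthest from the median of the list. Over all 16 it was 0.57 (rho 0.62), and 0.57 without such libraries. D0 control replicate 2 held 17.4 CPM of DLX transcripts at a list sum of 78.9 CPM.

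The same DLX sum gave r = -0.29 with 9 pan-neuronal genes and -0.46 with 12 genes of the pallial glutamatergic lineage over the 12 later libraries, and 0.09 and -0.17 without the 2 farthest libraries, both D70 TMG, so neither relation held. For GAD1 and GAD2 summed, r was -0.48 with the neural crest, branchial and placode list, 0.37 with the pan-neuronal list and 0.09 with the pallial list over the same libraries, and -0.67, 0.42 and -0.02 without the 2 farthest. SOX10, which marks migrating neural crest, was present in all 16 libraries, at 2973 counts in D12 TMG replicate 2 and 860 to 1081 in the other D12 libraries, but at 14 counts in D70 TMG replicate 2 and 30 to 77 in the other D70 libraries. The part of crest, branchial or placode cells in the DLX counts was not tested.

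**Figure D4:**
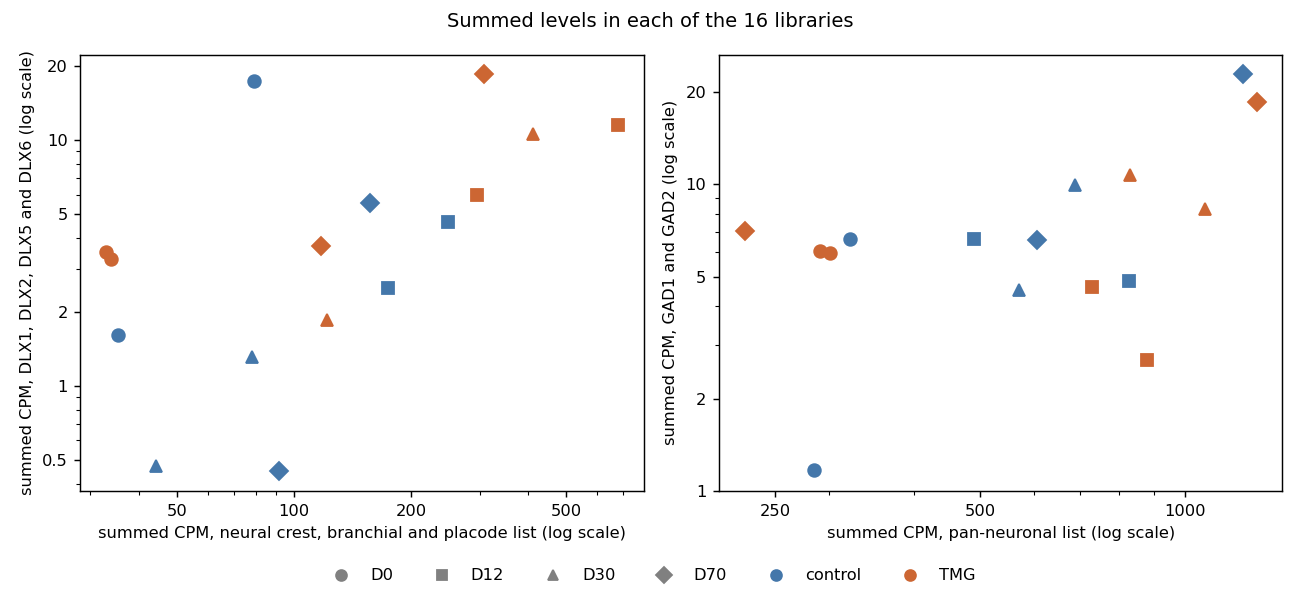
Summed CPM of the 4 DLX genes against summed CPM of the neural crest, branchial and placode list (left) and summed CPM of GAD1 and GAD2 against that of the pan-neuronal list (right), both on log axes, 1 point per library with shape for stage and colour for arm. On the left the 12 libraries after D0 rise together (r = 0.88), with D0 control replicate 2 (17.4 CPM of DLX transcripts) near the height of the highest of them, D70 TMG replicate 2 (18.5 CPM), at a lower list sum; on the right D70 TMG replicate 2 sits at the lowest pan-neuronal sum, 225.2 CPM.

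Other genes of these pathways were taken by list. No gene in any of the 12 lists passed edgeR's test between TMG and control at any stage. Of 18 tested among 22 other subpallial factors, 5 rose (NR2F2, MAF, SOX6, PROX1 and MEIS2) and 2 fell (SP8 and OLIG1) from D0 to D70 in control (median log2 change 2.22, against 0.027 over all genes). Here and in the lists below, called genes that were not among the 3 most abundant were named after their values were seen. ZIC1, NR2F2 and MAF were its most abundant members. NR2F2, a factor of the caudal subpallium and of many other tissues, rose by 4.58 (SE 0.87, adjusted p = 0.00348), and MAF, used by interneurons and lens, by 3.58 (SE 0.56, adjusted p = 0.00122).

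For the GABA pathway beyond its synthesis, 3 of 8 genes of vesicle filling, transport and breakdown rose (ALDH5A1, ABAT and the GABA transporter gene SLC6A13) and 1, the transporter gene SLC6A11, fell over the same interval (median 2.09). ALDH5A1, which completes GABA breakdown, rose by 2.64 (SE 0.29, adjusted p = 0.000221). ABAT, the transaminase before it, and GPHN, which encodes gephyrin, the scaffold of inhibitory synapses, had mean levels of 78.0 and 28.4 CPM. Among 17 tested genes of interneuron subtypes and migration 4 rose and 1 fell (median 1.12). Those that rose were RELN, a protein that guides migrating neurons, PENK, the neuregulin receptor gene ERBB4 and the chemokine receptor gene ACKR3, and KIT fell.

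Hedgehog signalling specifies the ventral forebrain upstream of NKX2-1. Of its 8 tested genes 0 rose and 1, the transcription factor gene GLI2, fell from D0 to D70 in control (median 0.219). GLI3, a transcription factor of the pathway that acts mainly as its repressor, was the most abundant at a mean of 300.8 CPM, ahead of the transducer SMO (137.7) and the receptor PTCH1 (68.4). The ligand SHH had 0 to 22 counts per library (chosen after its values were seen). For comparison 4 of 12 pallial glutamatergic genes rose (PAX6, EMX2, NEUROD2 and NEUROG2) and 0 fell (median 2.40). Each of these shares is to be read against the 29.8% of all genes called between D0 and D70 in control.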

How the data were processed

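RNA-seq of H9 cells was measured in 16 libraries, 2 in each of 8 groups of stage and treatment. The authors aligned reads with Bowtie2 to hg19 (GRCh37) and deposited estimated counts per gene from RSEM 1.2.12, as far as the submitters' processing notes name the tools; every deposited value is a whole number, so rounding changed none. The library kit and counting are not stated to use strand. Groups follow the sample titles; in 8 libraries the treatment tag disagrees with the title. Of 57736 gene identifiers, 55501 were paired with a symbol. CPM, counts for each 1000000 counts, were computed from TMM-scaled totals.

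Genes passing filterByExpr (minimum count 10, minimum total 15), 24249 in number, were tested with the quasi-likelihood test of edgeR 4.0.16 (R 4.3.3, limma 3.58.1), 1 model over all 16 libraries with 8 groups, and p-values were adjusted over all genes by Benjamini-Hochberg at 0.05. The script was tested on simulated data. Log2 CPM for correlations used a prior count of 2. Ratios of groups with 1 to 3 pooled counts carry exact 95% intervals. Groups at 0 were set to a floor of 3 counts, and the lower limit of the interval is given beside the ratio. Both cover counting error only. Alternatives were RLE scaling, no filter, DESeq2 1.42.0 (on 16 libraries and by stage), edgeR by stage, a replicate block and leaving out each library. Tables and intervals were made in Python 3.11.15 (pandas 2.3.3, scipy 1.17.1). The members, the 12 other lists and the tests were chosen with earlier results of these data known. All 9 members are named; from each other list the rule names genes passing the test between TMG and control and the 3 with the highest mean CPM, and as nearest patterns up to 3 genes for each member and 5 for the DLX mean. Others are named where a result turns on them, chosen after their values were seen. Some items of the lists are not reported here and enter no list count or sum. Promoter windows come from RefSeq on GRCh38.p14.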

Additional observations from a re-analysis of the deposited data

How the results depend on the processing

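No member was called between TMG and control, or for a change of that difference between stages, under RLE scaling, no filter, DESeq2 on 16 libraries, edgeR by stage, or with any library left out; DESeq2 on the 4 D12 libraries called 1 (DLX5). That fit to the 4 D12 libraries called 0.555% of the genes to which it gave an adjusted value. DESeq2 gave no adjusted value to some scarce members. Some counts of members called between stages, where 1 was called under the chosen settings, differed with DESeq2 on 16 libraries. For D70 against D0 it gave 3 in control (DLX2, GAD1 and GSX2, against 31.7% of all genes). In TMG it gave 2 for the same stages (DLX5 and DLX6, against 31.9%). For D70 against D12 in control it gave 0 (against 19.7%), where GSX2 had no adjusted value, so this is no lost call. Without the filter, D30 against D0 in control gave 0 (all genes 13.8%), and D70 against D30 in control (0.767%) and D70 against D12 in TMG (2.73%) gave 1 each where 0 had been called. Leaving out single libraries gave 0 to 1 for D12 against D0 in both arms, D30 against D0 in control, D70 against D12 in control and D70 against D12 in TMG, 1 to 2 for D70 against D0 in control and 0 to 2 for D70 against D0 in TMG. Where an arm keeps 1 library, it is assumed to vary like the others. The causes were not tested.

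In a fit with a replicate block, D70 against D0 in control gave 2 (DLX2 and GSX2; all genes 30.5%), and D30 against D0 (28.9%) and D70 against D12 (5.87%) in TMG gave 1 each (DLX6 in both). The numbers were not taken as pairs, since that needed a correlation over 0.1 at every stage. Replicate differences in control and TMG correlated at 0.0453 at D0, 0.367 at D12, 0.223 at D30 and 0.607 at D70. Of the printed TMG log2 fold changes 9 turned sign, in 11 fits that each left out a library of the stage. For DLX1 the ranges over such fits were -0.69 to 2.17 at D12 and -1.36 to 7.58 at D30, both lower ends without TMG replicate 2. DLX2 at D0 ran from -2.42 to 1.07 (without control replicate 2). DLX5 at D70 ran from -0.26 (without TMG replicate 2) to 9.46. The 7.58 and 9.46 ends leave control replicate 1 alone, at 0 counts of the gene, so they are fitted values and no measured folds. LHX6, at 0.04 (SE 0.81) with all D0 libraries, ran from -0.42 (without control replicate 2; -0.20 without TMG replicate 1) to 0.77 at D0, and from -3.15 to 0.83 (without control replicate 1) at D70. GAD1 ran from -0.29 (without control replicate 1) to 2.29 at D0, -0.076 (without control replicate 1) to 1.25 at D30 and -1.10 to 0.99 (without control replicate 1; 0.33 without TMG replicate 2) at D70. The depth, 10334908 to 19836878 counts, limits DLX6, GSX2, NKX2-1 and GAD2 most.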
